A study of Mus musculus with 18 samples.

Results

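The 3 control regions that carry paternal imprints in the mouse, upstream of H19, between Dlk1 and Meg3, and upstream of Rasgrf1, were examined in single growing oocytes. The members were all CpGs with at least 1 read inside a fixed window of the mm9 build at each locus. There were 19 such CpGs of 1207536 read on the autosomes and X in any oocyte, 11 in the H19 window, 5 in the Meg3 intergenic window and 3 in the Rasgrf1 window. The windows were chromosome 7 from 149761001 to 149771000, chromosome 12 from 110760001 to 110772000 and chromosome 9 from 89765001 to 89785000. CpG methylation came from reduced representation bisulfite sequencing, in which DNA is cut at MspI sites and bisulfite turns unmethylated cytosines into bases read as T. The 18 libraries were 1 oocyte each, from secondary follicles (SF; 7 wild type, WT, and 5 Sall4 knockout, KO) and early antral follicles (EAF; 4 WT and 2 KO).

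Sall4 encodes a zinc finger transcription factor. The knockout oocytes came from Sall4fl/fl;Zp3-Cre females, in which the Zp3 promoter drives Cre in growing oocytes, and the protocol names Sall4fl/fl females as the other genotype. Postnatal days 12.5 and 17.5 are listed for all samples without being tied to a stage. No label ties an oocyte to an animal. Each group is therefore treated as 1 sample, no test was run, and SDs describe oocytes, not animals.

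Imprint control regions carry DNA methylation on only one parental allele in somatic cells. Most are methylated in the growing oocyte, whereas the 3 described here are methylated in the male germ line and are known to be free of methylation in oocytes. H19 encodes an untranslated RNA, and its control region binds CTCF and keeps enhancers from the growth factor gene Igf2 on the unmethylated allele. The intergenic region between Dlk1 and Meg3 controls both genes, and Meg3 is an untranslated RNA expressed from the maternal allele. Rasgrf1 encodes a guanine nucleotide exchange factor for Ras, and repeats beside its control region are needed for that region to be methylated in the male germ line. The question was whether the 3 regions stay unmethylated at both stages and in both genotypes.

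The promoter of Meg3 lies outside the intergenic window, on its high side, and acquires methylation on the paternal allele after fertilization. It is shown here because reads fell on it in oocytes in which the intergenic window was not read. The sequence is that of RefSeq on build GRCm38.p6, plus strand, chr12:109540746-109541045, 250 bases before to 50 bases after the start of the gene. Capitals mark the 7 CpGs of its 13 that were read, from base 174 to base 287.

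Meg3 promoter: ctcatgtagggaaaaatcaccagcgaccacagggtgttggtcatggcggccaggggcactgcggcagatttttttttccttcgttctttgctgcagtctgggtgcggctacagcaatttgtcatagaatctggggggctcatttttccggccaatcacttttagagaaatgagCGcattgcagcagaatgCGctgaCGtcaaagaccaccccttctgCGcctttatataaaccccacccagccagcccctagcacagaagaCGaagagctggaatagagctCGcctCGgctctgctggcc

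Coverage of the paternal regions was sparse. Of 54 combinations of a window and an oocyte, 11 had any count, from 10 oocytes, and the other 8 oocytes had none. The H19 window was read in 7 oocytes, the Rasgrf1 window in 3 and the Meg3 intergenic window in 1. Among 109188 windows of 10 kb that were read in any oocyte, 71.5% were read in 7 or fewer, so the H19 window was not read in unusually few oocytes. Within it the reads were uneven: 139 of its 175 counts were on 3 CpGs at its low end, and 4 lay above its centre. Of windows of 12 kb, 18.7% were read in 1 oocyte, and of windows of 20 kb, 32.2% were read in 3 or fewer. Library depth, as counts summed over CpGs, ran from 464501 to 6518646. A read is counted at each CpG it spans, so separate reads are fewer than counts, and copies made by PCR are not separate molecules.

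**Figure D1:**
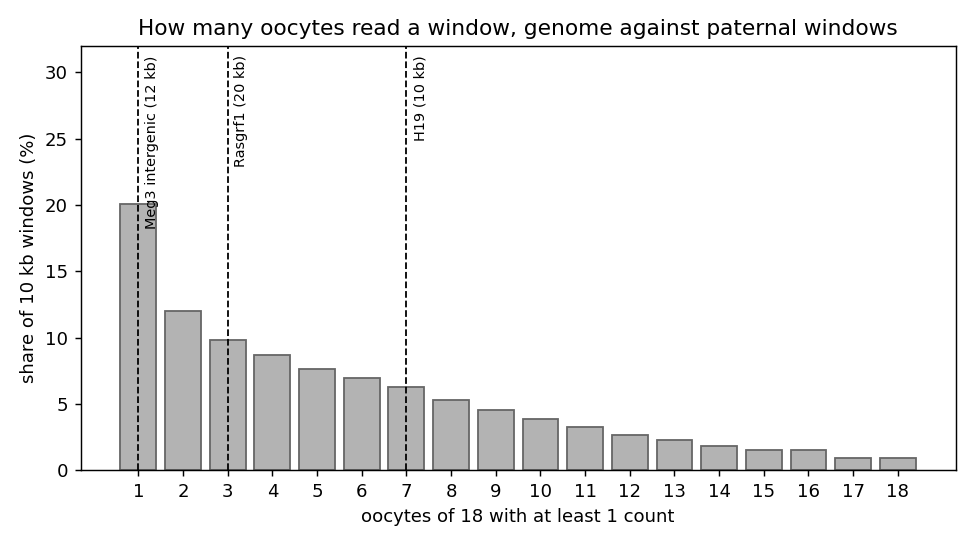
Share of 10 kb windows (vertical axis, %) by the number of the 18 oocytes with at least 1 count in them (horizontal axis), among windows read in any oocyte. Dashed lines mark the paternal windows, at 7 oocytes for H19, 3 for Rasgrf1 and 1 for the Meg3 intergenic window, whose lengths are given beside the names.

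In the H19 window, methylated counts were absent from 5 of the 7 oocytes read and made up most of the counts in 1 wild-type oocyte of the early antral stage. SF WT replicate 2 had 0 methylated of 24 counts, and SF WT replicate 5 had 0 of 31. SF KO replicate 3 had 0 of 26, SF KO replicate 4 had 0 of 29, and SF KO replicate 5 had 3 of 41, or 7.32% (exact binomial 95% interval 1.54% to 19.9%). All 5 secondary follicle oocytes that were read thus stood below 10%, and the genotypes overlapped at 0%. EAF WT replicate 1 had 5 of 8 counts methylated, 62.5% (exact binomial 95% interval 24.5% to 91.5%), and EAF KO replicate 2 had 0 of 16. These intervals, and the limits that follow, cover counting error only and treat each count as a separate read. A read that spans several CpGs is counted at each, so they are too narrow. In EAF WT replicate 1 no CpG had more than 2 counts, so its 8 counts may be very few reads. A count of 0 allows a level of up to 12.5% with 24 counts, 9.68% with 31, 11.5% with 26, 10.3% with 29 and 18.75% with 16. At a level at or below 20%, 6 of the 7 oocytes counted as unmethylated. Of all pairs of an oocyte and a 10 kb window, 73.0% did, so a low level was the common state of such windows. No such share was taken for windows without a methylated count or below 10%, so those counts of oocytes stand without a background.

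The same 3 CpGs, at 149761700, 149761722 and 149761768, were read in every one of these 7 oocytes, all on the forward strand and within 69 bases. They allow the oocytes to be compared on the same sites. In the 6 oocytes other than EAF WT replicate 1 they had 0 methylated of 133 counts. That allows a level of up to 2.26% over these oocytes together if each count is a separate read. This limit pools oocytes of both stages and genotypes. Taken singly, they allowed from 9.68% (SF WT replicate 5) to 33.3% (SF KO replicate 5). The same read can span all 3 CpGs, so the true limits are wider. In EAF WT replicate 1 each of the 3 had 2 counts, 1 of them methylated, so that oocyte stood apart on the sites shared by all, but on very few reads. Its 2 other CpGs, at 149762173 and 149762178, had 1 count each, both methylated, and were read in no other oocyte.

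Position within the H19 window differed between oocytes. As background, the H19 transcription unit occupies the low end of the window and the control region lies toward higher positions. No annotation of mm9 was used to place single CpGs. Above the centre of the window there were 4 counts in all, on the CpGs at 149767135 and 149767291 in SF KO replicates 3 and 5, none methylated. Those 4 counts set no useful limit, and no wild-type oocyte had a count there. Between these and the shared sites, SF KO replicate 5 alone had 4 CpGs from 149764762 to 149764880. The first had 3 of 6 counts methylated, while its neighbours at 149764766, 149764770 and 149764880 had 0 of 8 each. All 3 methylated counts of that oocyte were therefore on 1 CpG, and none of the sites within 8 bases of it was methylated. Of the 1 kb segments, the one from 149761001 held the most counts, 139. It was also the only one read with at least 5 counts in at least 6 oocytes, and its level had a median of 0% and a range of 0% to 50% over 7 oocytes.

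**Figure D2:**
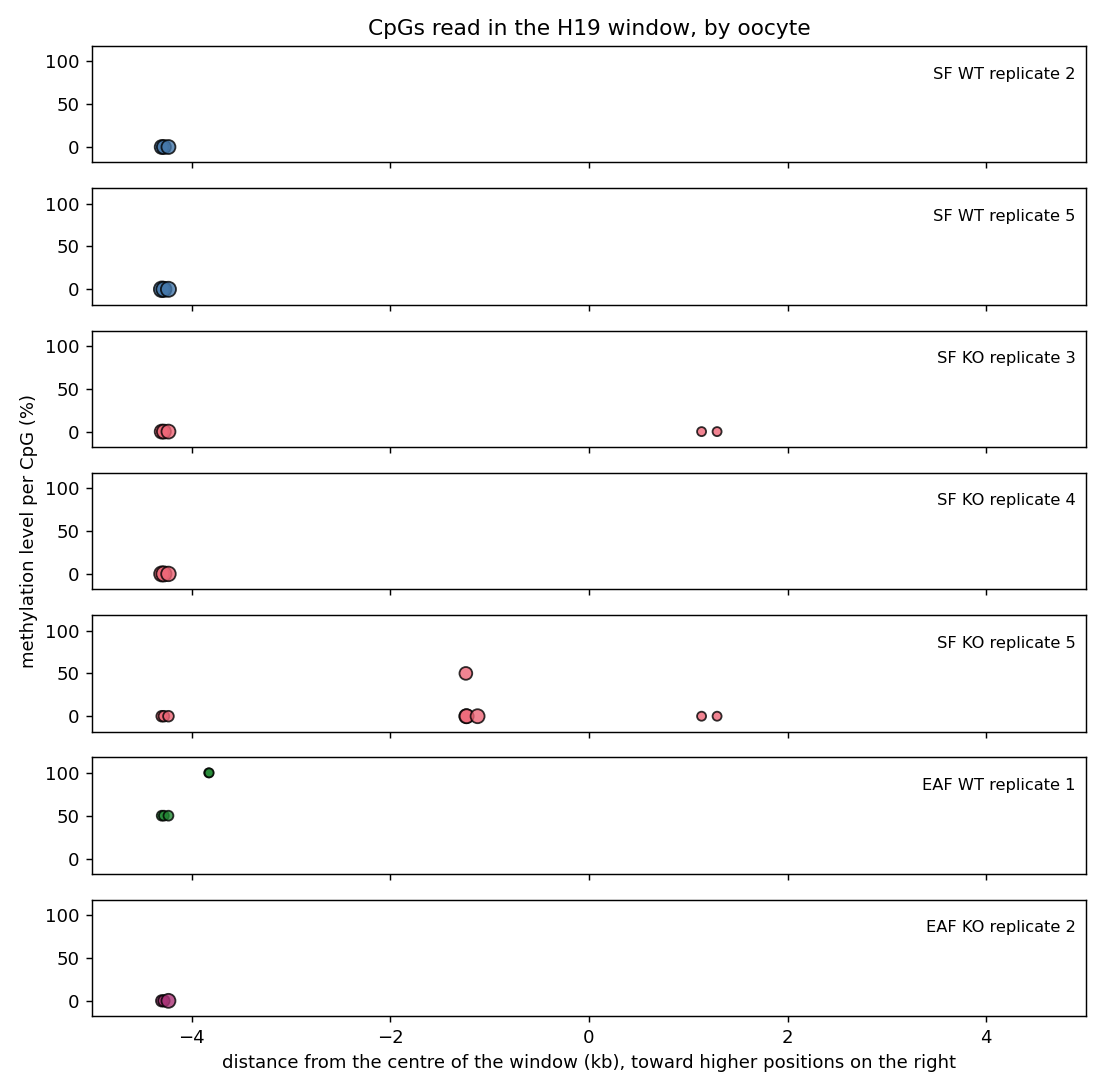
Methylation level of each CpG read in the H19 window (vertical axis, %) by distance from the centre of the window (horizontal axis, kb), 1 panel for each of the 7 oocytes, with larger points for more counts. The leftmost 3 CpGs stand at 0% in 6 oocytes and at 50% in EAF WT replicate 1, and SF KO replicate 5 has 1 CpG at 50% among neighbours at 0%.

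Group values for the H19 window rest on these few oocytes. The mean level was 0% ± 0 (SD, n = 2 oocytes) in SF WT and 2.44% ± 4.22 (SD, n = 3) in SF KO. The single values were 62.5% in EAF WT and 0% in EAF KO, with no replicate. At the SF stage knockout exceeded wild type by 2.44 percentage points, less than the spread between oocytes, and it was 0 without SF KO replicate 5. At the early antral stage the knockout minus wild-type difference was -62.5 points, and the EAF minus SF difference in wild type was 62.5 points. Both rest on the 8 counts of EAF WT replicate 1, at most 2 per CpG. They have no value without that oocyte, with at least 5 reads required per CpG, or with at least 20 counts required per oocyte. With the window widened by 5 kb on each side a second EAF WT oocyte was read, at 0%, and the differences were -31.25 and 31.25 points. In the genome, 28.8% of 10 kb windows were lower by 10 points or more in EAF KO than in EAF WT, and 19.8% were higher by 10 points or more in EAF WT than in SF WT. Those shares come from windows read in at least 2 oocytes of each group, with at least 5 CpGs and 20 counts per oocyte, which the H19 window did not meet in these groups. In knockout oocytes the EAF minus SF difference was -2.44 points, also within the spread between oocytes.

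In the Meg3 intergenic window only SF WT replicate 1 was read, and it was unmethylated. Its 5 CpGs, from 110764946 to 110765037, had between 21 and 24 counts each and 0 methylated of 116 in all. That allows a level of up to 2.59% if each count is a separate read. The 5 CpGs lie within 92 bases, all read on the forward strand, so the same reads can span them all. As 24 reads they would allow up to 12.5%, and copies made by PCR widen that further. Of all pairs of an oocyte and a 12 kb window, 72.9% stood at or below 20%. The other 17 oocytes had no count in the window, so neither the knockout nor the early antral stage can be described there. The 50 kb on either side of the window also had 0 methylated of 66 counts in that oocyte, while its maternal control regions included one at 88.9%, described below.

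At the promoter of Meg3, whose sequence is printed above, no methylated count was found in any of the 5 oocytes read. Of all pairs of an oocyte and a window of 300 bases with at least 7 CpGs read, 57.4% had no methylated count. The counts were 0 of 59 in SF WT replicate 2, 0 of 14 in SF WT replicate 6, 0 of 73 in SF KO replicate 2, 0 of 7 in SF KO replicate 4 and 0 of 7 in EAF KO replicate 1. Each of the 7 CpGs shown in capitals was read in each of these oocytes. Together they gave 0 of 160 counts, which allows a level of up to 1.88% if each count is a separate read. This limit pools oocytes of both stages and genotypes. Taken singly, they allowed from 4.11% (SF KO replicate 2) to 42.9% (SF KO replicate 4 and EAF KO replicate 1). A read can span several of the 7 CpGs, so the true limits are wider. Wild-type and knockout oocytes of the secondary follicle stage and 1 EAF knockout oocyte were thus at 0% alike, and no EAF wild-type oocyte was read there. The 7 counts of SF KO replicate 4 and of EAF KO replicate 1 were 1 per CpG. Each set may come from 1 read and sets no useful limit, so the EAF value of 0% may rest on 1 read.

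The Rasgrf1 window had 5 counts in all, none methylated. SF WT replicate 6 had 2, EAF WT replicate 4 had 1 and EAF KO replicate 2 had 2, on the CpGs at 89780620, 89780659 and 89780724. These CpGs lay 5620 to 5724 bases above the centre of the window, and no annotation placed them inside or outside the control region. As separate reads the 5 counts together would allow a level of up to 60.0%. The 2 counts of SF WT replicate 6, and those of EAF KO replicate 2, lay on the same strand at nearby CpGs and may be 1 read each. No useful limit follows, and this depth cannot tell an unmethylated region from one methylated on many molecules. All 3 oocytes stood at or below 20%, as did 72.5% of pairs of an oocyte and a 20 kb window. Differences between stages and genotypes were 0 points where both groups had a value and are not informative at 1 or 2 counts per oocyte.

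The same oocytes were next compared at 9 regions known to be methylated in the growing oocyte, the maternal control regions of Peg10, Mest, Peg3, Snrpn, Kcnq1ot1, Plagl1, Grb10, Zrsr1 and Igf2r. Of these, 7 were read in at least 1 oocyte, and Peg3 and Plagl1 in none. The paternal window stood below the mean of the maternal regions of the same oocyte in 10 of 11 pairs, and in 6 of 6 pairs from wild-type oocytes. Of all windows of the same size in the same oocytes, 72.0% stood below that mean, and 81.1% in the wild-type oocytes, so most windows would be counted in the same way. Of the 11 pairs, 3 rest on 1 or 2 Rasgrf1 counts, and EAF KO replicate 2 enters for both H19 and Rasgrf1. In SF KO replicate 4 both were at 0%. The H19 values here are those of the window: 139 of its 175 counts were on the 3 CpGs at its low end, and 4 lay above its centre. In SF WT replicate 5 the H19 window was at 0% of 31 counts and Grb10 at 45.6% of 248. In SF WT replicate 2 the H19 window was at 0% of 24 counts, while the 4 maternal regions ran from 0% to 70.8%. In SF WT replicate 1 the Meg3 intergenic window was at 0% of 116 counts, against 8.33% and 88.9% at 2 maternal regions. These 3 libraries thus held CpGs of paternal windows at 0% beside at least 1 maternal region with methylation.

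EAF WT replicate 1 was the exception in level, though not in order. Its H19 window was at 62.5%, and Snrpn, Grb10 and Zrsr1 were each at 100%, on 508 counts together. All its CpGs in the H19 window, from 149761700 to 149762178, lay at the low end, on the side of the H19 transcription unit. It had no count above the centre, so its value does not describe the control region toward higher positions. The same held for the 0% values of SF WT replicates 2 and 5, SF KO replicate 4 and EAF KO replicate 2. Their counts were only on the 3 shared CpGs at the low end. The flanks of the H19 window of EAF WT replicate 1 had 0 methylated of 17 counts. Its level over all autosomal and X counts was 22.6%, within the 16.4% to 24.1% of EAF WT oocytes. That oocyte had 1090883 counts in all, and what gave its methylated H19 counts was not tested.

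In knockout oocytes the difference between the paternal windows and the maternal regions was small, and the maternal regions were low as well. At the SF stage the maternal levels ran from 0% to 32.4% over 23 values in knockout, with a median of 0%, and from 0% to 100% over 14 values in wild type, with a median of 68.7%. At or below 20% were 21 of the 23 knockout and 5 of the 14 wild-type values, so the SF genotypes overlapped. At the EAF stage they ran from 0% to 29.1% over 7 values in knockout and from 83.6% to 100% over 7 values in wild type. The paternal window minus maternal difference was -8.97 points in SF KO replicate 3, 0 in SF KO replicate 4 and -3.03 in SF KO replicate 5, all for H19. It was -9.76 points in EAF KO replicate 2 for both H19 and Rasgrf1. In wild type it ran from -20.1 to -93.1 points, the latter on 2 Rasgrf1 counts. Peg10, Grb10, Zrsr1 and Igf2r had a value in all 4 groups. Among them Zrsr1 (chromosome 11, 22870001 to 22875000) had group means nearest to those of the H19 window. The mean absolute difference was 18.5 points over the 4 groups. The match was loose: Zrsr1 was at 36.6% in SF WT and 97.4% in EAF WT, against 0% and 62.5% for H19. The EAF values of H19 were 1 oocyte each, on 8 counts in WT and 16 in KO. In EAF WT the lowest maternal region was Peg10 (chromosome 6, 4695001 to 4700000), at 83.6%, and the highest were Snrpn and Grb10, at 100%, each in 1 oocyte.

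**Figure D3:**
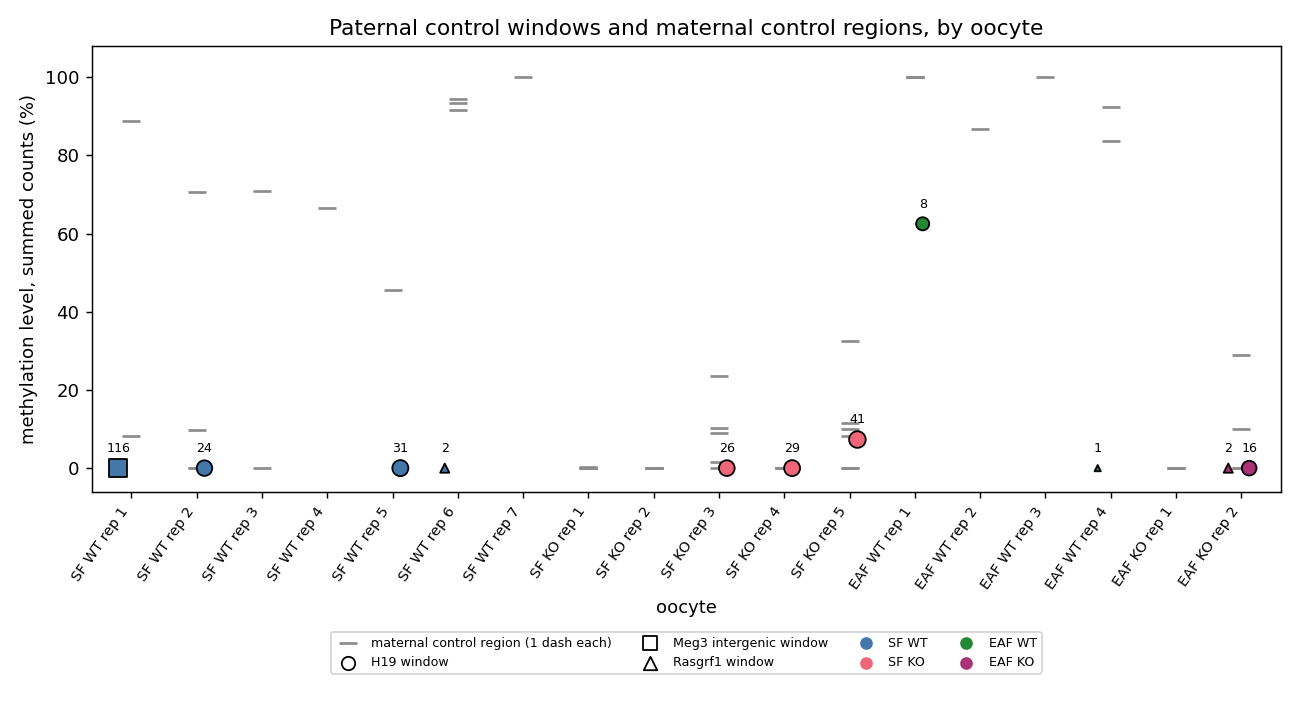
Methylation level from summed counts (vertical axis, %) in each oocyte (horizontal axis): circles are the H19 window, squares the Meg3 intergenic window and triangles Rasgrf1, with the number of counts printed above and set slightly aside from the oocyte's position, and grey dashes are maternal control regions, which overlap where equal. All paternal symbols lie at 0% except SF KO replicate 5 at 7.32% and EAF WT replicate 1 at 62.5%, while dashes of EAF WT oocytes lie at 83.6% or above.

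Sequence around the windows was not uniformly unmethylated. The 50 kb on either side of the H19 window had a median level of 0% over 14 oocytes, with a range of 0% to 84.4%. SF WT replicate 7 gave the highest value, with 54 of 64 counts methylated. Within 20 kb on either side there were 0 methylated of 185 counts in 6 oocytes, so the methylated counts beside H19 lay farther out. Around the Meg3 intergenic window the EAF WT oocytes had 41.9% ± 30.9 (SD, n = 4, 225 counts), against 0% ± 0 in SF WT (n = 4, 207 counts), 1.19% ± 1.82 in SF KO (n = 5, 948 counts) and 0% ± 0 in EAF KO (n = 2, 12 counts). The EAF WT values were 0%, 74.4%, 47.7% and 45.5% in replicates 1 to 4, and their range overlapped that of the other groups at 0%. Within 20 kb the EAF WT mean was 29.4% ± 50.9 (SD, n = 3), with 2 of the 3 oocytes at 0%. The CpGs read differed between oocytes. The 12 counts of the knockout allow a level of up to 25.0% if each is a separate read, and more where a read spans several CpGs. Around the Rasgrf1 window 1 of 588 counts was methylated over 8 oocytes.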

How the data were processed

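Per the labels' protocols, DNA of single oocytes was cut with MspI and bisulfite treated before PCR, and the submitters' processing notes name BSMAP 2.89 and build mm9. The deposited tables hold, per the file headers, the count of all reads and of methylated reads at each CpG, in total and per strand, and their ratio as a fraction. Read filters were not given in the sources used here.

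Methylated and total counts of all CpGs with at least 1 read were summed per window and oocyte, and group values are means over oocytes with a count. The windows and comparison regions were chosen with earlier results of these data known, and the maternal windows were placed from general knowledge of mm9. Intervals are exact binomial at 95%, and the limit for a count of 0 is 3 counts of the total. Both treat each count as a separate read and are too narrow where a read spans several CpGs. Levels at or below 20% were called unmethylated, and differences of 10 points or more large. Background shares use a grid of 10, 12 or 20 kb. All windows were named. The Meg3 promoter was added after values were seen: its RefSeq sequence was set against CpG positions within 50 kb of the intergenic window and had 1 placement at which all CpGs read, at least 5, fell on its CpGs. No such placement was found for Rasgrf1, and coordinates were not converted. Alternatives changed the read minimum, weighting, pooling, window, strand, threshold, flank and grid size and the oocytes included. Summation was tested on simulated counts that were deeper than those of these windows and independent between CpGs, so reads shared between CpGs were not covered. The software was pandas 2.3.3, numpy 2.4.6, scipy 1.17.1 and matplotlib 3.10.9 under Python 3.11.15.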

Additional observations from a re-analysis of the deposited data

Results flagged for a closer look

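Groups of 4 or more oocytes were checked for an oocyte whose gap to the nearest other, as a share of the group's range, passed Dixon's 95% critical value. There were 6 such groups, all in sequence beside the windows, and 2 held one. Chance gives about 1 in 20 for values without ties. In both groups all other oocytes were at exactly 0%, so any level above 0% would have stood apart, and that rate does not apply. On the low side of the Meg3 intergenic window EAF WT replicate 3 stood at 61.9% (52 of 84 counts), with the other EAF WT oocytes at 0%. On the high side SF KO replicate 1 stood at 4.81% (20 of 416 counts), with the other SF KO oocytes at 0%. The CpGs read differed between these oocytes.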

How the results depend on the processing

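No paired analysis was possible because no test was run, since no label ties an oocyte to an animal. Values were set against the spread between oocytes or, with 1 oocyte, its counting interval. That measure is wide at these counts, and leaving out an oocyte with no count in a window changes nothing there, so the lack of a larger move is no sign of stability. Values outside that measure were 3 shares of genome windows at or below 20%, with windows of 20 kb in place of 10 kb: 69.0% in place of 70.6% in SF WT, 63.8% in place of 65.8% in EAF WT and 75.3% in place of 73.8% in EAF KO. Leaving out 1 oocyte at a time gave an H19 level of 0% to 3.66% in SF KO, with 0% without SF KO replicate 5, and a knockout minus wild-type difference of 0 to 3.66 points in SF. The EAF WT level of the H19 window was 70.0% with each CpG weighted equally and 31.25% with the wider window. On the forward strand alone the SF KO level was 0%. With each window cut to its middle, the H19 window had counts in SF KO only, at 4.69%, and the Rasgrf1 window in no oocyte. With flanks of 20 kb the sequence beside the H19 window was at 0% in place of 29.2% in SF WT, on 1 oocyte with 2 counts, and at 0% in place of 7.92% in SF KO. No EAF WT level of the H19 window was left with at least 5 reads per CpG, and no Rasgrf1 level. The Rasgrf1 window had 5 counts in all, and the Meg3 intergenic window was read in 1 oocyte.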
